A study of Mus musculus with 15 samples.

Results

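Olfr923, Olfr160, Olfr145 and Olfr983 are mouse odorant receptor genes that earlier work reported as receptors for acetophenone. They were taken by name and are 4 of the 1107 intact odorant receptor genes among the 57010 rows of the count table. All 4 had enough counts to be tested, as did 866 of the 1107. Olfr160 is also known as M72, Olfr145 as K21, Olfr923 as MOR164-2 and Olfr983 as MOR162-1.

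The experiment asked which receptors respond when a mouse smells a pair of odorants, and whether it matters that the odorants meet on the paper or only in the air. Messenger RNA was sequenced after immunoprecipitation of ribosomes with phosphorylated ribosomal protein S6 from olfactory epithelium, a modification that marks active neurons. There were 15 libraries in 5 groups of 3 biological replicates, each taken here as 1 mouse. All mice were wild-type C57BL/6J males 8 weeks old, kept without odour for 4 h and then exposed for 90 min. Control mice were given empty filter papers. In A+D, acetophenone and decanal shared 1 paper, while in A&D each had its own, on 2 papers about 1 mm apart. O+C and O&C were the same arrangements with octanal and cis-3-hexenol, and every odour group got 10 µL of each odorant, 20 µL in all. No group smelled acetophenone alone, so in these data its effect and that of decanal cannot be told apart. The labels put every library in the same batch.

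Each mature olfactory neuron expresses a single odorant receptor gene out of the whole family. An odorant that binds the receptor activates the olfactory G protein, whose alpha subunit is Gnal, and through adenylyl cyclase Adcy3 raises cyclic AMP, which opens the cation channel built from Cnga2, Cnga4 and Cngb1 and, after it, the chloride channel Ano2. When such a neuron is activated its S6 becomes phosphorylated, and the messenger of the receptor it carries is enriched in the precipitate. Olfr160 (M72) and its close relative Olfr151 (M71) are long-studied acetophenone receptors of the mouse, and acetophenone itself is a sweet, almond-like aromatic ketone.

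The 4 genes lie on chromosome 9 and are not near-copies of one another. In the order of the 129 receptors annotated as protein-coding on that chromosome, Olfr160 took place 37, Olfr145 place 42, Olfr923 place 79 and Olfr983 place 126. Thus 4, 36 and 46 other such receptors lay between neighbours of the set. Their proteins were 60.5% (Olfr160 and Olfr983) to 66.8% (Olfr923 and Olfr145) identical, and their lengths were 317 residues for Olfr923, 309 for Olfr160, 310 for Olfr145 and 315 for Olfr983. The stretch of 30 codons that ends at the conserved Asp-Arg-Tyr of the third membrane-spanning segment is printed to show where the 4 genes differ in it. It was not compared with other stretches of these genes. How conserved the stretch is over the family was not measured. It covers residues 100 to 129 of Olfr923, 94 to 123 of Olfr160, 93 to 122 of Olfr145 and 97 to 126 of Olfr983, written 5′ to 3′ on the coding strand, with capitals at the 44 of 90 bases that were not the same in all 4.
Olfr923: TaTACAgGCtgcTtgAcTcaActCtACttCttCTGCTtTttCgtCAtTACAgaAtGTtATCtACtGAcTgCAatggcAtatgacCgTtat
Olfr160: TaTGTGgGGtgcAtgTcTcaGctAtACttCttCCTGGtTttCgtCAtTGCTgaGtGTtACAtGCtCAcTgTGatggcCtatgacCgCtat
Olfr145: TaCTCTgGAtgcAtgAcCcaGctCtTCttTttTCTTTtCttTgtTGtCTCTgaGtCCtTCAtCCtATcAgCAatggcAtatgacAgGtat
Olfr983: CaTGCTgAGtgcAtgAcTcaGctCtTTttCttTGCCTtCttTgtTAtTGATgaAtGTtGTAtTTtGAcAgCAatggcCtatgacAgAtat
In this stretch the closest pair, Olfr923 and Olfr160, differed at 23 of the 90 bases, and the farthest, Olfr923 and Olfr145, at 32. Over the whole protein Olfr923 and Olfr145 were the most identical pair (66.8%), so the stretch orders the pairs differently. The deposited counts of the 4 genes were whole numbers to within 0.001 in every library. How reads that fit more than 1 gene were assigned cannot be read from these counts.

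The libraries held 22704193 to 25287077 counts, and intact receptors took 0.309% to 0.573% of them. Levels of single genes are given as CPM, the usual count relative to library size, after scaling of the libraries. The marker sums below are CPM of the whole library, without that scaling. All 7 markers of mature olfactory sensory neurons were found, none of them at 0 in all libraries. Their summed level was 7451 to 8347 CPM in Control, 8177 to 10395 in A+D, 10317 to 12707 in A&D, 12034 to 14521 in O+C and 11887 to 16006 in O&C. These sums thus differed between groups, and their part in the results below was not tested. In these bulk samples, fewer cells of a type and less RNA per cell cannot be told apart. Markers of sustentacular cells summed to 1077 to 1337 CPM in Control and 676 to 1014 CPM in the odour libraries, those of immune cells to 741 to 1158 and 399 to 1105 CPM. None of these lists had a marker at 0 in all libraries. Gland markers ran from 198 CPM (A&D 1) to 1563 CPM (A&D 2), within a single group.

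All 4 receptors were at their highest in the acetophenone groups. When acetophenone and decanal shared a paper, Olfr923, Olfr145 and Olfr983 rose above Control, by 8.31-fold to 35.5-fold, and Olfr160 was 3.28-fold above Control without passing the test over all genes. When the odorants were on separate papers, all 4 rose, by 6.10-fold (Olfr160) to 34.4-fold (Olfr923). The count of 3 of 4 in A+D stands against 57 of all 19229 genes tested called higher (0.296%) and 46 of the 866 receptors (5.31%). The count of 4 of 4 in A&D stands against 193 of all genes (1.00%) and 89 receptors (10.3%). Both comparisons use the same 3 Control libraries, so they are not independent of each other. A gene was called at an adjusted p under 0.05 in edgeR's quasi-likelihood test, with Benjamini-Hochberg adjustment over all genes tested.

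**Figure D1:**
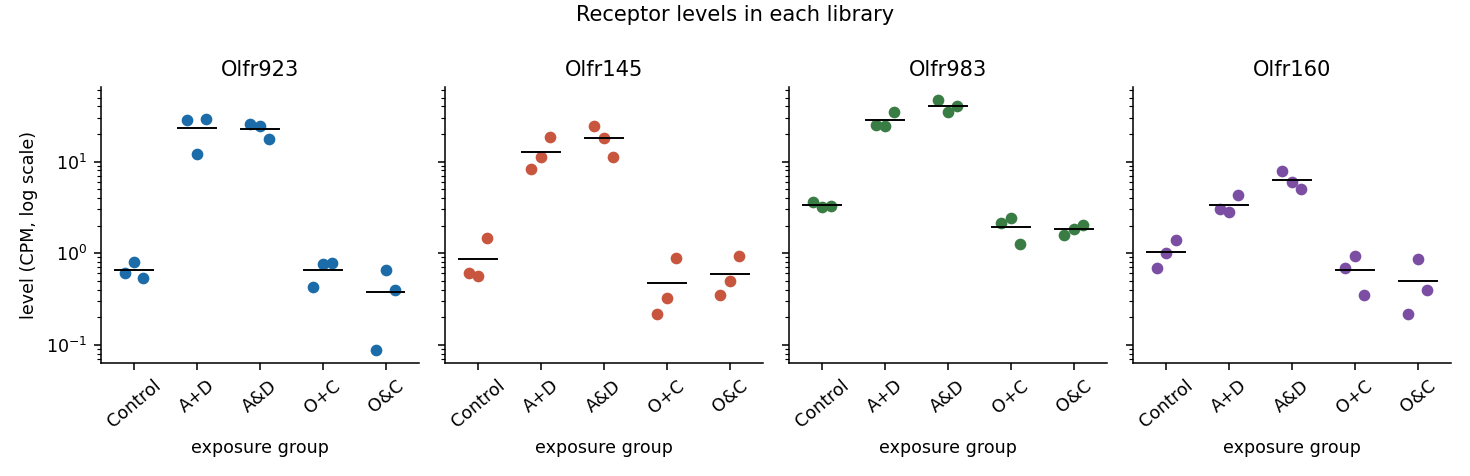
Level of each receptor in each library, in CPM on a logarithmic axis, by exposure group. Points are the 3 libraries of a group from replicate 1 on the left to replicate 3 on the right and the black line is their mean. For all 4 genes the 6 acetophenone libraries lie above the other 9.

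Olfr923 showed the widest span. It stood at 0.606, 0.798 and 0.537 CPM in Control 1 to 3, and at 28.2, 12.0 and 29.2 CPM in A+D 1 to 3. In A&D it reached 25.4, 24.5 and 17.6 CPM. Every acetophenone library was far above every Control library, and A+D 2 was the lowest of the 6. A+D 2 also had the lowest summed level of mature neuron markers among the acetophenone libraries. The log2 fold change of Olfr923 was 5.15 ± 0.41 in A+D (SE, n = 3 against 3, edgeR adjusted p = 2.69e-06) and 5.11 ± 0.41 in A&D (adjusted p = 1.17e-06). By size of fold change it ranked 2nd of the 866 receptors and 9th of all genes in A+D, and 3rd and 9th in A&D.

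Olfr145 was the next. In Control it stood at 0.606, 0.558 and 1.45 CPM, in A+D at 8.27, 11.2 and 18.6 CPM, and in A&D at 24.5, 18.1 and 11.3 CPM. The A+D and A&D libraries overlapped with each other and none overlapped with Control, although Control 3 was more than double the other Control libraries. The log2 fold change was 3.86 ± 0.48 in A+D (edgeR adjusted p = 0.000554) and 4.37 ± 0.48 in A&D (adjusted p = 6.62e-05). It ranked 5th of the receptors in A+D and 9th in A&D.

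Olfr983 followed. Its Control values were 3.64, 3.19 and 3.31 CPM, its A+D values 25.2, 24.4 and 34.7 CPM and its A&D values 47.2, 34.4 and 40.4 CPM. No acetophenone library came near the Control range, and the highest A+D library slightly exceeded the lowest A&D library. The log2 fold change was 3.06 ± 0.21 in A+D (edgeR adjusted p = 1.86e-07) and 3.59 ± 0.21 in A&D (adjusted p = 9.91e-09). It had the smallest standard error of the 4 in both comparisons, and ranked 13th and 20th of the receptors by fold change.

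Olfr160, the classical M72 receptor, moved least. It stood at 0.687, 0.997 and 1.40 CPM in Control, at 3.02, 2.83 and 4.28 CPM in A+D and at 7.87, 5.98 and 5.06 CPM in A&D. The 3 groups did not overlap. Its log2 fold change in A+D was 1.71 ± 0.39, with a 95% interval from 0.90 to 2.53. The unadjusted p in edgeR was 0.000342 and the adjusted p 0.0806, which misses the threshold. The adjusted p ran from 8.85e-05 to 0.406 over 12 alternatives, and the gene was called in 4 of them: with DESeq2 (0.0038), with libraries scaled on the receptors alone (0.0192), with no filter on low counts (8.85e-05) and without A+D 1 (0.0372). In A&D the log2 fold change was 2.61 ± 0.39 (edgeR adjusted p = 0.000732). It ranked 50th of the receptors in A+D and 56th in A&D.

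**Figure D2:**
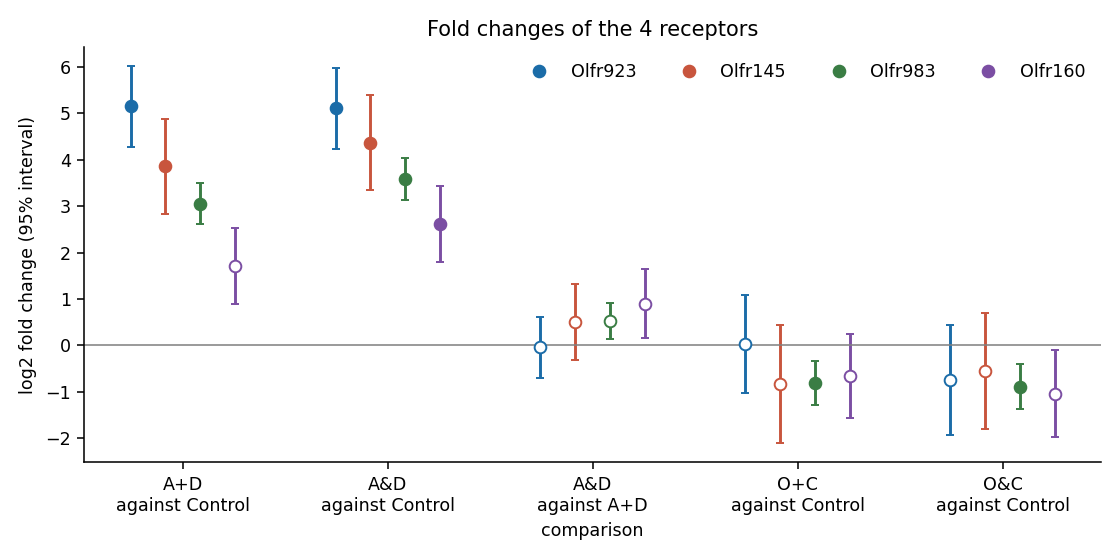
Log2 fold change of each receptor in 5 comparisons, with the 95% interval from edgeR. Filled points passed the test over all genes and open points did not. The acetophenone groups give 7 filled points above 0, and Olfr983 gives 1 filled point below 0 in each octanal and cis-3-hexenol group.

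The size of the response differed between the receptors. The log2 ratio of 2 receptors within a library does not depend on library scaling, and its mean over the 6 acetophenone libraries was compared with its mean over the 3 Control libraries by an exact two-sided permutation test. Of the 6 pairs compared, 4 passed, each with an exact permutation p = 0.0238, the smallest p that this design can give, and p = 0.0357 after Benjamini-Hochberg adjustment over the pairs.

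Olfr160 responded less than each of the others. Its response was smaller than that of Olfr923 by 2.88 on the log2 scale, a factor of 7.33. Counted per library, the ratio of Olfr923 to Olfr160 was 0.886, 0.804 and 0.391 in Control, 9.26, 4.22 and 6.79 in A+D and 3.22, 4.08 and 3.46 in A&D. The acetophenone ratios were all above the Control ratios, and those of A+D were all above those of A&D, a separation that was seen in the values and not tested. The response of Olfr160 minus that of Olfr145 was -1.97 and minus that of Olfr983 was -1.12 on the log2 scale.

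Olfr923 also responded more than Olfr983 relative to Control, by 1.75 on the log2 scale (exact permutation p = 0.0238, adjusted 0.0357, 6 against 3 libraries). In mean CPM, Olfr983 was the higher in A+D (28.1 against 23.1), in A&D (40.7 against 22.5) and in Control (3.38 against 0.647). The ratio of Olfr923 to Olfr983 was 0.168 to 0.255 in Control and 0.436 to 1.12 in the acetophenone libraries. By response relative to Control, Olfr145 was between them. Its response was 0.91 below that of Olfr923 (exact permutation p = 0.143, adjusted 0.143) and 0.84 above that of Olfr983 (p = 0.0714, adjusted 0.0857). Neither difference passed the test, which does not show that these receptors respond alike.

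**Figure D3:**
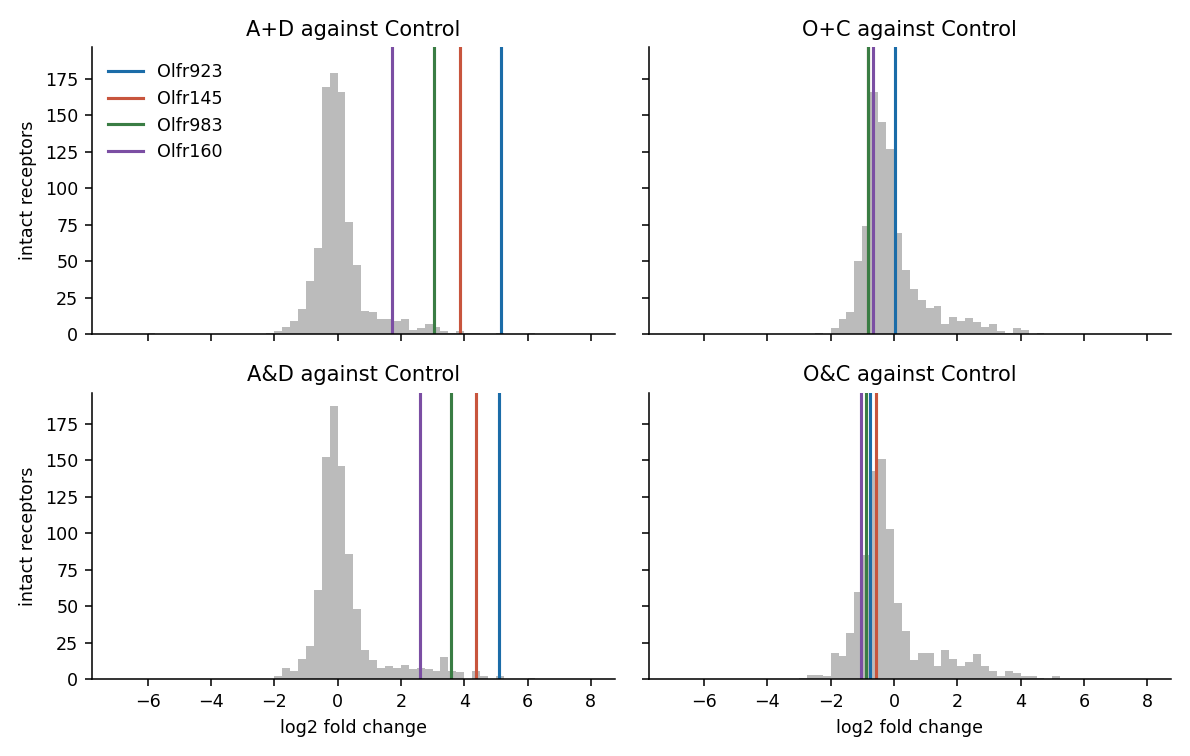
Number of intact receptors by log2 fold change against Control, in bins of 0.25, for the 866 tested, one panel per odour group. Coloured lines mark the 4 receptors, which stand in the upper tail in A+D and A&D and within the bulk in O+C and O&C.

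The manner of delivery made no difference that passed the test for any of the 4. Against 23 of all genes called higher in A&D than in A+D (0.120%) and 21 of the receptors (2.42%), 0 of the 4 were called by edgeR, and 0 by DESeq2. At an unadjusted threshold of 0.05 there were 2 of the 4 by either tool, Olfr160 and Olfr983, both higher in A&D. Olfr160 had a log2 difference of 0.90 with a 95% interval from 0.15 to 1.64 (edgeR, unadjusted p = 0.021, adjusted p = 0.994). Olfr983 had 0.53 with an interval from 0.14 to 0.92 (edgeR, unadjusted p = 0.0104, adjusted p = 0.994). For Olfr145 the difference was 0.50 (-0.32 to 1.33) and for Olfr923 it was -0.04 (-0.69 to 0.61).

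Between O&C and O+C none of the 4 was called, at an unadjusted p under 0.05 or by DESeq2, and edgeR called no gene at all (0.00%). The difference between the delivery effects of both odorant pairs was also not called for any of the 4 by edgeR or DESeq2, against 2 of all genes (0.0104%). At an unadjusted threshold of 0.05 it held 1 of the 4, Olfr160, at 1.29 on the log2 scale (edgeR adjusted p = 1, or 0.0413 unadjusted).

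In mice that smelled octanal and cis-3-hexenol, none of the 4 receptors rose. Olfr983 fell by 0.81 ± 0.23 on the log2 scale in O+C (edgeR adjusted p = 0.037), to a level 1.75-fold under Control, and by 0.89 ± 0.23 for O&C (adjusted p = 0.0148), 1.86-fold under Control. The 1 of 4 in O+C compares with 451 of all genes called lower (2.35%) and 32 of the receptors (3.70%). The 1 of 4 in O&C compares with 1040 of all genes (5.41%) and 71 of the receptors (8.20%). These comparisons share the Control libraries with each other and with the acetophenone comparisons.

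Olfr983 stood at 2.11, 2.45 and 1.24 CPM in O+C and at 1.56, 1.84 and 2.05 CPM in O&C, all below its lowest Control value of 3.19 CPM. Both calls depended on how libraries were scaled. With scaling on the receptors alone, the log2 fold change was -0.57 in O+C (edgeR adjusted p = 0.15) and -0.65 for O&C (adjusted p = 0.0834). That scaling raises the median log2 fold change of all genes from -0.01 to 0.23 for O+C and from -0.04 to 0.23 for O&C. It also turns the receptor calls from 98 higher and 32 lower into 116 and 7 in O+C, and from 134 and 71 into 147 and 22 in O&C. The O+C call was lost when any 1 of the 3 Control libraries was left out, and likewise for O+C 1 and for O+C 3, where the log2 fold change came as near 0 as -0.55, and in O&C without Control 1 (adjusted p = 0.0559) or O&C 1 (adjusted p = 0.0735). The median receptor stood at -0.33 with O+C and -0.39 with O&C, and by fold change Olfr983 was the 136th and the 165th lowest of the 866 receptors.

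The other receptors were low in these groups, and none of their differences from Control passed the test. Olfr923 was at 0.431, 0.763 and 0.778 CPM in O+C and at 0.0867, 0.656 and 0.401 CPM in O&C, and the lowest of these is a library with 2 counts. Olfr160 was at 0.689, 0.924 and 0.350 CPM in O+C and at 0.217, 0.861 and 0.401 CPM in O&C. Olfr145 was at 0.215, 0.321 and 0.895 CPM in O+C and at 0.347, 0.492 and 0.935 CPM in O&C.

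For each of the 3 genes the octanal and cis-3-hexenol libraries overlapped the Control range. Their log2 fold changes in O+C were 0.03, -0.65 and -0.83 for Olfr923, Olfr160 and Olfr145, and in O&C -0.74, -1.04 and -0.56, none past the test by edgeR. The Olfr160 value in O&C had an unadjusted p of 0.031 and an adjusted p of 0.124, and passed without O&C 2 (log2 fold change -1.72, adjusted p = 0.0321). These 3 genes had 2 to 23 counts per library in O+C and O&C, and their 95% intervals reached down to as low as -2.11 (Olfr145 in O+C).

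Ordered by mean level, each gene had its acetophenone groups on top and the other 3 groups below. Olfr923 had 23.1 ± 9.62 CPM in A+D (SD, n = 3) and 22.5 ± 4.27 in A&D, then 0.657 ± 0.196 in O+C, 0.647 ± 0.135 in Control and 0.381 ± 0.285 in O&C. Olfr145 had 18.0 ± 6.61 CPM in A&D and 12.7 ± 5.31 in A+D, then 0.870 ± 0.499 in Control, 0.591 ± 0.306 in O&C and 0.477 ± 0.366 in O+C. Within both genes the acetophenone groups overlapped with each other, and so did the 3 low groups.

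Olfr983 had 40.7 ± 6.39 CPM in A&D (SD, n = 3), 28.1 ± 5.73 in A+D, 3.38 ± 0.232 in Control, 1.93 ± 0.621 in O+C and 1.82 ± 0.244 in O&C. Olfr160 had 6.31 ± 1.43 CPM in A&D, 3.38 ± 0.788 in A+D, 1.03 ± 0.360 in Control, 0.654 ± 0.288 in O+C and, lowest, 0.493 ± 0.332 in O&C. For Olfr983 the Control group stood apart from its neighbours on both sides, while for Olfr160 Control overlapped O+C and O&C. Set directly against the octanal and cis-3-hexenol libraries, the acetophenone libraries were higher for 4 of 4, against 1296 of all genes called higher (6.74%) and 173 of the receptors (20.0%). The log2 fold changes in this comparison of 6 with 6 libraries, which needs no Control, were 5.48 ± 0.30 for Olfr923, 4.81 ± 0.36 for Olfr145, 4.17 ± 0.16 for Olfr983 and 3.01 ± 0.29 for Olfr160 (edgeR adjusted p from 1.38e-11 to 2.04e-06). In the same comparison 117 receptors were called lower. With scaling on the receptors alone 107 were higher and 139 lower.

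**Figure D4:**
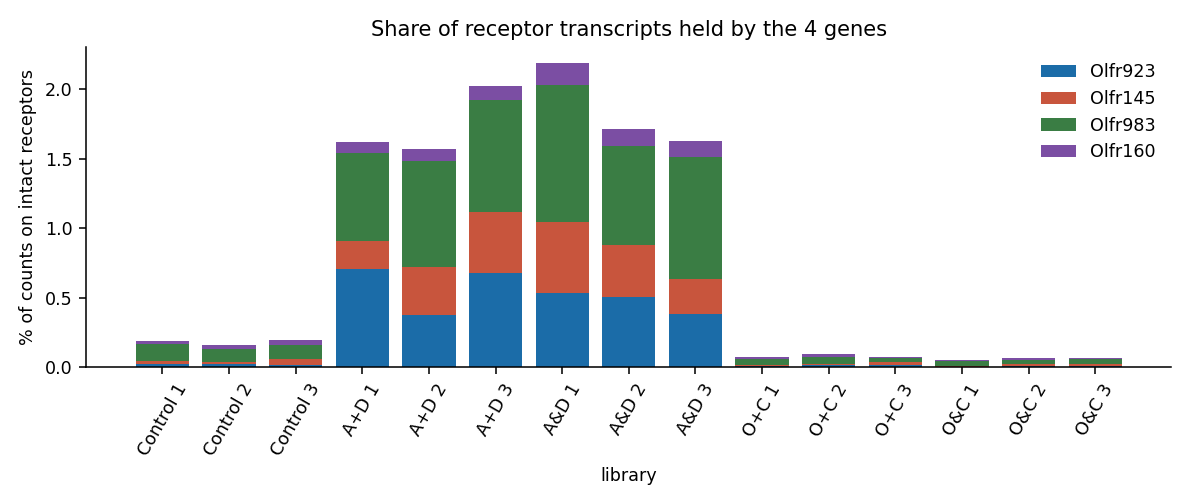
Percentage of the counts on all intact receptors that fell on each of the 4 genes, stacked, in each library. The 6 acetophenone libraries reach 1.57% to 2.19%, the Control libraries 0.157% to 0.198% and the octanal and cis-3-hexenol libraries 0.0515% to 0.0924%.

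As a share of all receptor transcripts, which does not depend on library scaling, the 4 genes together made up 0.181% ± 0.0216 in Control (SD, n = 3). They made up 1.74% ± 0.248 in A+D and 1.84% ± 0.304 in A&D. The share was 0.0788% ± 0.0118 in O+C and 0.0602% ± 0.00763 in O&C. The plot of receptor shares shows no overlap between the 3 kinds of library: acetophenone highest, Control between, octanal and cis-3-hexenol lowest. A share also falls when other receptors rise, and edgeR called 98 receptors higher in O+C (11.3%) and 134 in O&C (15.5%). Their part in the lower share was not tested. In CPM, Olfr923, Olfr160 and Olfr145 overlapped Control in both of these groups. Olfr983 alone had a mean share of 0.104% in Control and 0.860% in A&D, and Olfr160 one of 0.0310% in Control and 0.133% in A&D.

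Olfr151 (M71) is the closest relative of Olfr160 and has also been reported for acetophenone, yet it had 0 counts in 14 libraries and 1 count in O+C 3. A count of 0 allows up to 3 counts, or 0.132 CPM in the smallest library, counting error only. The coding sequences of Olfr160 and Olfr151 matched at 896 bases, 96.8% of the shorter, and the annotation used here lists Olfr151 as a polymorphic pseudogene. The stretch around the one place where the alignment opens a gap is shown. Coding bases 711 to 771 of Olfr160 and 711 to 770 of Olfr151 are written 5′ to 3′. The capital marks base 741 of Olfr160, which the alignment left without a partner in Olfr151. That base lies in a run of G, so which G of the run is unpaired was a choice of the alignment.
Olfr160: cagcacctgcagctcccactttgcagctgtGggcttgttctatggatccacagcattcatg
Olfr151: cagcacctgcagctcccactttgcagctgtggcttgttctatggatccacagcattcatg
The other 60 bases are the same in both genes, so the remaining differences between them lie outside this stretch. Without the stop codon, the annotated coding length of Olfr151 is 926 bases, which is not a multiple of 3, while that of Olfr160 is 927 bases. In the acetophenone libraries, where Olfr160 was highest, Olfr151 stayed at 0 counts.

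The intact receptors closest in protein sequence did not all behave like their counterparts. Olfr145 has near relatives in Olfr876 (84.2% identical) and Olfr874 (83.9%), and both rose with it. Olfr874 was higher by 3.68 on the log2 scale in A+D and by 4.46 in A&D (edgeR adjusted p = 1.03e-06 and 3.55e-08), and Olfr876 by 3.31 and 3.80 (adjusted p = 0.00539 and 0.00064). Olfr876 was uneven in Control 1 to 3, at 0.040, 1.44 and 0.992 CPM. Olfr874 and Olfr876 each had counts that were not whole in 2 libraries. Olfr983 is 80.9% identical to Olfr887, which had log2 fold changes of -0.44 in A+D and 0.50 in A&D (edgeR adjusted p = 0.618 and 0.663). Its closest relative, Olfr888 (82.2%), had too few counts to be tested.

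The closest relative of Olfr923 is Olfr147, which had 0.36 in A+D and 1.42 in A&D (edgeR adjusted p = 0.709 and 0.124). The 95% interval of its change in A&D was 0.57 to 2.27. Set against the octanal and cis-3-hexenol libraries, the acetophenone libraries were called higher for Olfr147, by 2.32 (edgeR adjusted p = 0.000143). The next relative of Olfr923, Olfr905, is 69.0% identical and was not tested. Olfr160 apart from Olfr151 has no intact relative above 66.0%, the identity with Olfr985, and neither Olfr985 (0.44 and -0.25) nor Olfr229 (65.8%, -0.65 and 0.28) passed in A+D or A&D. Of the 8 relatives, 6 were tested and 2 were called higher in both acetophenone groups. Over the 866 receptors tested, 46 were called higher in A+D (5.31%) and 89 in A&D (10.3%). In the acetophenone libraries against the octanal and cis-3-hexenol libraries, 3 of the 6 were called higher, compared with 173 of the receptors (20.0%).

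**Figure D5:**
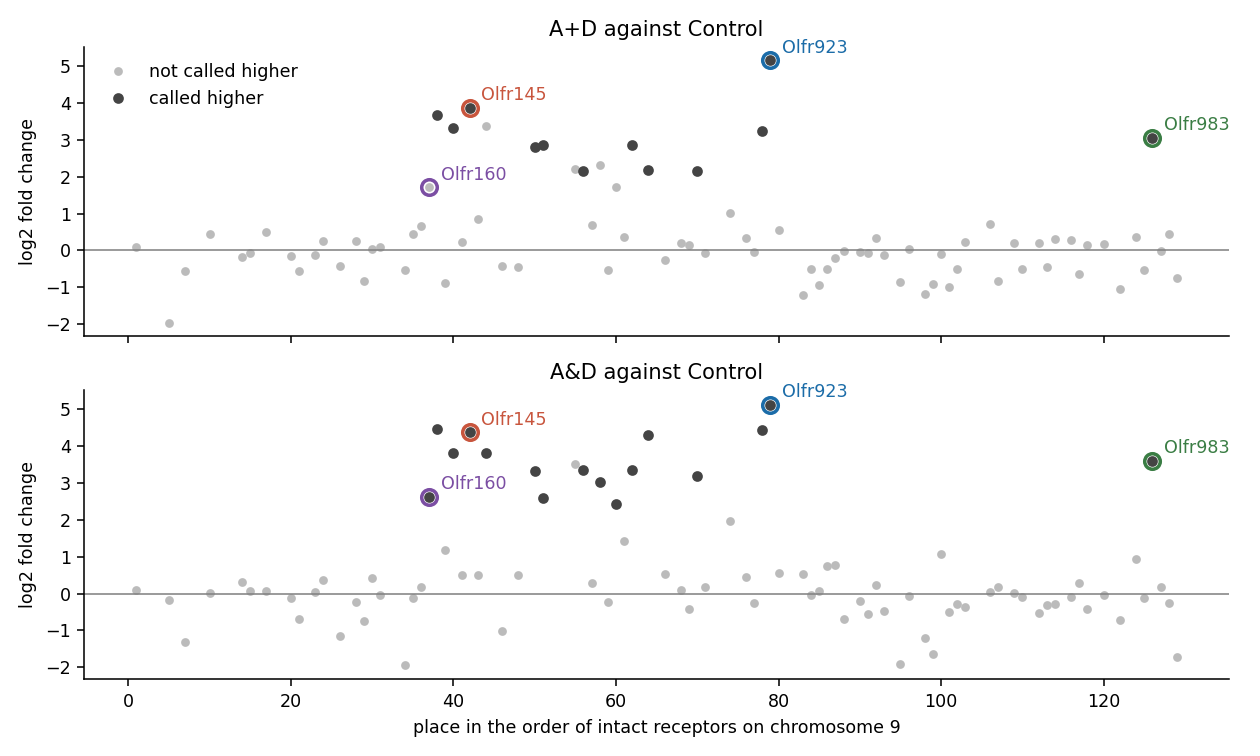
Log2 fold change of the tested intact receptors of chromosome 9 against their place in the order along the chromosome, for A+D and A&D against Control. Dark points were called higher, and coloured rings mark the 4 receptors. The dark points fall between places 37 and 79, apart from Olfr983 at place 126.

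The neighbours on the chromosome gave a mixed picture. Of the 16 genes that flank the 4 receptors, 2 on each side, 15 were tested, and 3 were called higher in A+D and 4 in A&D. Over the 866 receptors tested it was 46 (5.31%) and 89 (10.3%). Next to Olfr923, Olfr922 was higher by 3.23 for A+D and by 4.43 for A&D (edgeR adjusted p = 0.000437 and 3.02e-06), and it also rose in O&C, by 1.44 (adjusted p = 0.0439). The rise in O&C was between low levels, from 0.121, 0.199 and 0.207 CPM in Control to 0.564, 0.451 and 0.445 CPM. On the other side of Olfr923, Olfr924 had 0.55 and 0.56 (adjusted p = 0.665 and 0.762). Olfr874, next to Olfr160, and Olfr876, near Olfr145, are the relatives given above, and Olfr881 rose by 3.82 in A&D (adjusted p = 0.0236). In A+D the change of Olfr881 was 3.36, without a call (edgeR adjusted p = 0.106). Its A&D libraries were uneven, at 10.6, 2.93 and 2.63 CPM.

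Beside Olfr983 the pattern was split between odorant pairs. Olfr984, the gene next to it, had -0.01 in A+D and 0.17 in A&D, but its change was 3.42 for O+C and 3.77 for O&C, both higher (edgeR adjusted p = 1.08e-06 and 2.42e-07). Olfr981, next but one on its other side, was lower with both octanal groups, -1.20 for O+C and -1.13 for O&C (adjusted p = 0.0323 and 0.0283), and Olfr875 near Olfr160 fell by 1.71 in O&C (adjusted p = 0.0109). In the whole order of 129 receptors on chromosome 9, 12 of 87 tested were called higher in A+D (13.8%) and 16 in A&D (18.4%). The 4 genes described here are included. Among the tested receptors outside that order it was 34 of 779 (4.36%) and 73 (9.37%), given as a description.

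The genes whose levels followed those of the 4 receptors most closely over the 15 libraries were all other odorant receptors. The measure is Pearson's r of log2 CPM, given as a description, since the libraries share groups and depth. Olfr923 was most like Olfr1377 (r = 0.97), Olfr874 (0.97) and Olfr983 (0.97). Olfr145 was most like Olfr874 (0.97), Olfr1104 (0.97) and Olfr901 (0.96). Olfr983 was most like Olfr901, Olfr491 and Olfr874 (each 0.98), and Olfr160 most like Olfr749, Olfr1054 and Olfr491 (each 0.96). Among themselves the 4 receptors had r from 0.91 (Olfr160 and Olfr145) to 0.97 (Olfr923 and Olfr983). The counts of Olfr749 were not whole in any of the 15 libraries. Those of Olfr1377 and Olfr491 were not whole in 3 libraries each, and those of Olfr874 in 2. Reads that fit more than 1 gene can give such counts, which was not tested here.

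The list of olfactory transduction genes holds the signalling genes downstream of the receptors, the receptor chaperones Rtp1, Rtp2 and Reep1, and proteins typical of olfactory neurons such as Omp and Gfy. Of its 18 genes, which were all tested, 0 were called in A+D by edgeR (median log2 fold change 0.21, against 0.02 over all genes) and 2 in A&D (0.42 against 0.00). They were Omp, the marker protein of mature olfactory neurons, at 0.68, and Gnal at 0.48 (edgeR adjusted p = 0.0189 and 0.0235). In O+C 15 of 18 rose (median 0.75 against -0.01) and in O&C 17 (0.86 against -0.04). Omp, Cnga2, Cnga4, Gnal, Adcy3 and Ano2 are in this list and also among the mature neuron markers, whose sums differed between groups. The calls of this list are thus not separate from that difference, whose part in them was not tested. Over all genes tested, 1104 were called higher in O+C (5.74%) and 1794 in O&C (9.33%). Gfy, a Golgi protein of olfactory neurons, had the largest called change of the list in O+C and O&C, 1.19 and 1.35. Adcy3 rose by 0.94 and 1.19, and Gng13, a G protein gamma subunit, by 0.89 and 1.25. The counts of Gnal, Adcy3 and Gng13 were not whole in any library.

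Immediate early genes are switched on in neurons after activity. Of 14 such genes 0 were called in A+D by edgeR (median -0.09) and 1 in A&D (0.02), the nuclear receptor gene Nr4a1, at 1.10 on the log2 scale (adjusted p = 0.000283). It was also higher in A&D than in A+D, by 1.09 (adjusted p = 0.00243). In O+C 5 of 14 rose (median 0.68) and in O&C 6 (0.81). Nr4a1 rose by 2.70 and 2.30 in these groups, Fosb, a Fos family transcription factor, by 2.60 and 2.37, and Egr4 by 2.11 and 1.98. The largest called change of the list in O&C was that of Npas4, an activity-dependent transcription factor, at 3.37 (adjusted p = 0.0121), which had 1.97 without a call in O+C (adjusted p = 0.188). Against the octanal and cis-3-hexenol libraries, the acetophenone libraries were lower in 14 of 18 transduction genes and 8 of 14 early genes, and higher in none of either list by edgeR, against 1736 of all genes called lower (9.03%). The 4 receptors were higher in the same comparison.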

How the data were processed

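The deposited table holds estimated counts per gene (expected counts, not normalized), made by the authors with STAR 2.7.10b, Salmon 1.10.1, R 4.4.2 and build GRCm39, per the submitters' processing notes. The kit was stranded, per the labels' protocols. The annotation release and the strand setting of the counting are not given in the sources used here. Symbols came from a name table, which matched 52029 of 57010 identifiers. Receptors were called intact by name (Olfr and a number, no pseudogene suffix). The order on chromosome 9 held only those annotated as protein-coding.

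Counts were rounded to whole numbers, scaled by TMM and tested with edgeR 4.0.16 in R 4.3.3 (robust quasi-likelihood F test, a mean per group, all 15 libraries, 8 comparisons). Genes passed filterByExpr at a minimum count of 10, which left 19229. Standard errors were obtained by dividing the absolute log2 fold change by the square root of F, and intervals are at 95%. Adjusted p-values are Benjamini-Hochberg over all genes tested, threshold 0.05. The code was tested on simulated data. DESeq2 1.42.0, other scalings, no filter, fewer libraries and a replicate block were alternatives. Ratios of 2 receptors used counts plus 0.5.

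Genes named are the 4 receptors, Olfr151, for each receptor the 3 genes with the highest r (log2 CPM, prior count 2), the 2 closest intact relatives and 2 neighbours on each side, and up to 4 called genes per pathway list and comparison. Relatives were to be found in RefSeq proteins. Translated GENCODE M21 coding sequences (GRCm38) were used instead. That build differs from the one of the counts, so it served for sequence and gene order only. The other names of receptors are from RefSeq. The receptors, lists and tests were chosen with earlier results of these data known. The labels call the replicates biological and name no animals, so p-values measure only the spread between these libraries.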

Additional observations from a re-analysis of the deposited data

How the results depend on the processing

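The calls of the receptors higher in A+D, A&D and against the octanal and cis-3-hexenol libraries held under every alternative run, except for Olfr160 in A+D. The number called in O+C was 1 and became 0 with scaling on the receptors alone, with the replicate block and with only the groups compared in the fit, and 0 to 1 when a library was left out. In O&C it was 1, became 0 with scaling on the receptors alone, and 0 to 2 when a library was left out. The cause was not tested. The replicate numbers did not pair the libraries: over 30 same-numbered pairs r ran from -0.33 to 0.14, 3 were over 0.1, and 0 of 15 libraries correlated best with their own number. The replicate block ended the call of Olfr983 in O+C (edgeR adjusted p = 0.0666) and changed no other call of the 4.

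Without 1 library the direction turned only for values that had not passed: Olfr923 in O+C (-0.094 to 0.25), in A&D against A+D (-0.34 to 0.16), Olfr145 in O&C (-1.02 to 0.013), in O&C against O+C (-0.19 to 1.10) and in the difference of delivery effects (-0.59 to 0.71), and Olfr983 in O&C against O+C (-0.33 to 0.12). For pairs of receptors the ranges without 1 library were 2.51 to 3.09 (Olfr923 minus Olfr160), 1.59 to 1.95 (Olfr923 minus Olfr983), -2.15 to -1.72 (Olfr160 minus Olfr145) and -1.44 to -0.86 (Olfr160 minus Olfr983). None of these passed after adjustment (adjusted exact permutation p from 0.0536 to 0.107). Without a Control library the design cannot pass. Without an acetophenone library it could pass only if more than 4 of the 6 pairs reached the smallest p. A pseudocount of 2 and all 9 libraries without acetophenone as reference left the pair calls as they were.

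Over the alternatives the number of all genes called higher ran from 42 to 581 in A+D (57 above), 111 to 477 in A&D (193), 10 to 138 in A&D against A+D (23) and 209 to 1984 in acetophenone against octanal and cis-3-hexenol (1296). The number called lower ran from 24 to 1031 in O+C (451) and from 62 to 1875 in O&C (1040). In Control, Olfr923, Olfr160 and Olfr145 had 13 to 35 counts per library and Olfr983 had 80 to 90.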
